A study of Mus musculus with 26 samples.

Results

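Cytochrome P450 families 1, 2 and 3 are the haem monooxygenases with which the liver oxidises drugs, pollutants, steroids and fatty acids. The set described here held every gene whose symbol in the array annotation began with Cyp1, Cyp2 or Cyp3 followed by a letter, and Por, the reductase that hands these enzymes their electrons. The array carried 45 such genes on 62 probes, none of them annotated to Por, which is not analysed here. A gene was kept when its probe was detected, at a detection p under 0.01, on at least 4 of the 26 arrays. This left 31 genes on 43 probes, out of 7953 genes on 11001 probes that passed the same filter in the whole series, and 21 of the 31 were detected on every array. Of the 8 Cyp2d genes on the array 7 were detected, of the 10 Cyp2c genes 8, of the 5 Cyp2b genes 4, of the 6 Cyp3a genes 3 and of the 5 Cyp2j genes 1. The 14 genes that were not detected were Cyp1a1, Cyp2b19, Cyp2c40, Cyp2c65, Cyp2d34, Cyp2j5, Cyp2j6, Cyp2j11, Cyp2j13, Cyp2r1, Cyp2u1, Cyp3a16, Cyp3a41a and Cyp3a44, and nothing more is said of them.

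Total RNA of whole liver was measured on Illumina expression arrays, 1 mouse to an array, after 12 days of infusion from an osmotic pump. The ob/ob mice, which lack functional leptin, were females on a C57BL6 background that had been assigned to a treatment at 15 weeks of age. VEH-SQ mice received saline and LEP-SQ mice 10 µg of leptin per day under the skin, whereas VEH-ICV mice received artificial cerebrospinal fluid and LEP-ICV mice 1.5 µg of leptin per day into a cerebral ventricle. LEP-ICV* mice were given the same central dose but lost hardly any weight. The study separated them from LEP-ICV after treatment by that outcome, so that LEP-ICV holds only mice that lost weight. The study left it unsettled whether their cannula was in place, and its text says in one place that brain sections failed to show this for 2 of them and in another for the group. Each of these groups had 4 mice, and 6 B6 mice, the lean control, had no age, sex or handling stated. All ob/ob mice carried a pump, and an effect of leptin on these transcripts cannot be told apart from one of the weight change that went with it.

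These enzymes sit in the membrane of the endoplasmic reticulum and make foreign compounds more water soluble. Many of the genes lie in tandem clusters of near-identical copies, so that a probe may read more than 1 of them. Their transcription in hepatocytes is driven by nuclear receptors, above all CAR (Nr1i3) and PXR (Nr1i2), which respond to drugs and bile acids, and by HNF4 (Hnf4a), and it is known to fall in inflammation. In rodents several of them differ between the sexes, because the liver reads the sex-specific rhythm of growth hormone.

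Levels are log2 normalized intensities. They depend on the probe and were compared between mice, not between genes. A gene was called when its adjusted p from limma was under 0.05. Where groups are said to overlap or not, this describes single genes. The share of all genes without overlap was not computed. The arrays fell into a low and a high background class, by the intensity of probes that were not detected, of 99.3 to 114 on 12 arrays and 153 to 186 on 14. The 8 vehicle arrays belonged to the low class, the LEP-SQ and B6 arrays to the high class, and both classes held 2 arrays of LEP-ICV and 2 of LEP-ICV*, so that background and group cannot be told apart in LEP-SQ against VEH-SQ or in vehicle ob/ob against B6 except through the central groups. The counts of calls in the set are therefore given also with the class as a block in the model, and single genes where the block bears on their call. The number of detected probes ran from 6786 to 8516 in VEH-SQ and from 9049 to 10332 in LEP-SQ. Of the 8 listed hepatocyte markers 7 were detected on every array, and of the 3 listed adipocyte markers none passed the filter. Xist was detected on all 6 B6 arrays, and the Y-linked Eif2s3y and Kdm5d on none.

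In LEP-ICV livers many of the genes were lower than in VEH-ICV livers and none was higher. In LEP-ICV against VEH-ICV, 12 of the 31 genes fell and 0 rose, where 11.5% of all 7953 genes fell, 13.5% rose and 25.1% were called. At an unadjusted p under 0.05 there were 19 genes. The median log2 fold change of the 31 genes was -0.76, beside 0.01 for all genes. The genes that fell were 5 of the 8 Cyp2c genes, 5 of the 7 Cyp2d genes, Cyp2j9 and Cyp1a2. With the background class as a block the count was again 12 lower and 0 higher, of which 10 were the same genes, where 12.6% of all genes were called, 5.32% lower and 7.24% higher. With median scaling, which moved the median of all genes to -0.18, 18 of the 31 were lower and 0 higher, where 14.1% of all genes were lower and 8.19% higher. Liver is a mixture of cells, and in such bulk samples fewer hepatocytes and less RNA per hepatocyte cannot be told apart.

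**Figure D1:**
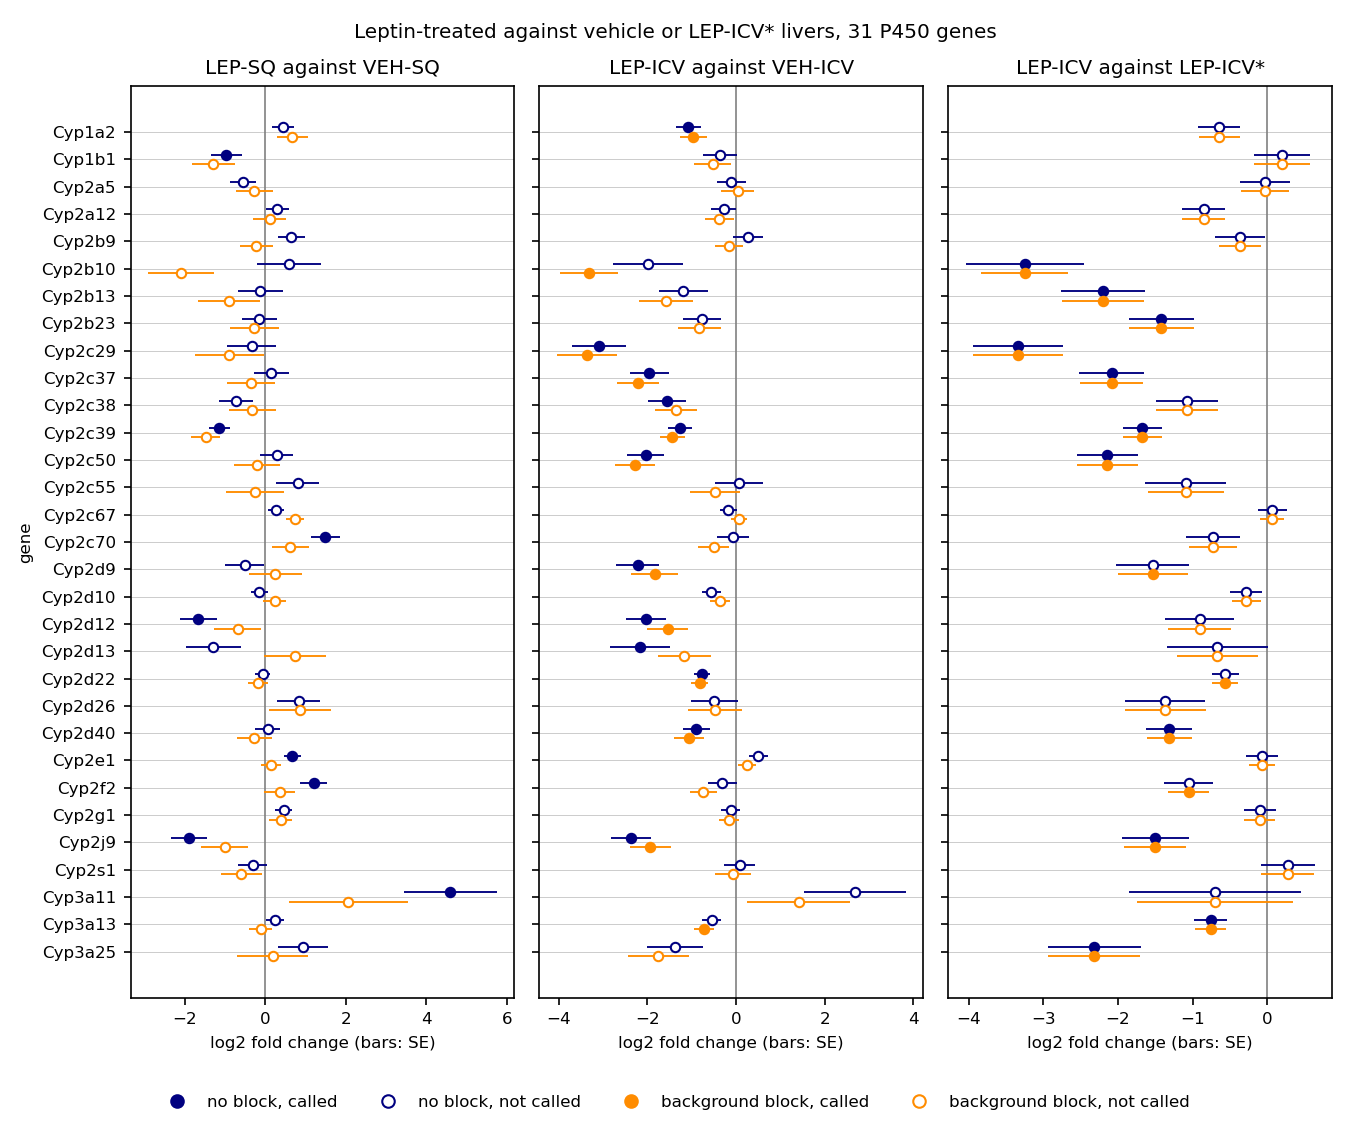
Log2 fold change of the 31 genes, with the SE as a bar, in LEP-SQ against VEH-SQ (left), LEP-ICV against VEH-ICV (middle) and LEP-ICV against LEP-ICV* (right), in the model of 6 groups without (blue) and with (orange) the array background class as a block. Filled points are called at an adjusted p under 0.05. The filled points of the middle and right panels all lie left of 0, and no orange point of the left panel is filled.

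The largest fall was that of a Cyp2c gene, which the study had reported from these arrays as falling with weight loss. Cyp2c29, a major hepatic enzyme of this subfamily that also turns arachidonic acid into epoxides, had levels of 9.17, 5.13, 6.63 and 7.85 in the LEP-ICV mice and of 10.16, 9.75, 11.04 and 10.17 in the VEH-ICV mice. Every LEP-ICV mouse lay below every VEH-ICV mouse, and the level fell by 3.09 on the log2 scale (SE 0.61, adjusted p = 0.00104). Its level was between 9.88 and 11.48 in LEP-ICV*, where the central dose had been given with little weight loss, and the difference between LEP-ICV and LEP-ICV* was -3.34 (SE 0.61, adjusted p = 9.32e-04).

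Cyp2c37 and Cyp2c50, close copies of each other that oxidise arachidonic acid, moved together. Cyp2c37 levels were 13.26, 9.91, 13.07 and 12.04 in LEP-ICV and 14.47, 13.78, 13.87 and 13.97 in VEH-ICV, and the level fell by 1.95 on the log2 scale (SE 0.43, adjusted p = 0.00263). Cyp2c50 levels were 13.20, 9.91, 12.85 and 11.99 in LEP-ICV and 14.38, 13.78, 13.96 and 13.99 in VEH-ICV, and the level fell by 2.04 on the log2 scale (SE 0.41, adjusted p = 0.00128). The groups did not overlap for either gene, and in both the same mouse, LEP_ICV_1014, was the lowest. Because the genes are so alike, the signal of their probes may be shared.

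In the other groups Cyp2c50 lay between 14.06 and 14.56 across the 6 B6, 4 LEP-SQ and 4 LEP-ICV* mice, and between 13.44 and 14.44 in VEH-SQ. Of the remaining Cyp2c genes, Cyp2c39, which hydroxylates retinoic acid, had levels of 6.83, 6.24, 6.68 and 6.79 in LEP-ICV and 8.53, 7.79, 7.52 and 7.78 in VEH-ICV and fell by 1.27 on the log2 scale (SE 0.26, adjusted p = 0.00172). Cyp2c38 levels were 9.20, 6.46, 7.33 and 8.10 in LEP-ICV and 9.25, 8.98, 9.59 and 9.50 in VEH-ICV. The level fell by 1.56 on the log2 scale (SE 0.42, adjusted p = 0.0104), although mouse LEP_ICV_1003 lay inside the vehicle range, and the call was lost with the block (adjusted p = 0.0617). Cyp2c67, Cyp2c70, which makes muricholic bile acids in mice, and Cyp2c55 were not called, at differences of -0.17, -0.08 and 0.06.

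**Figure D2:**
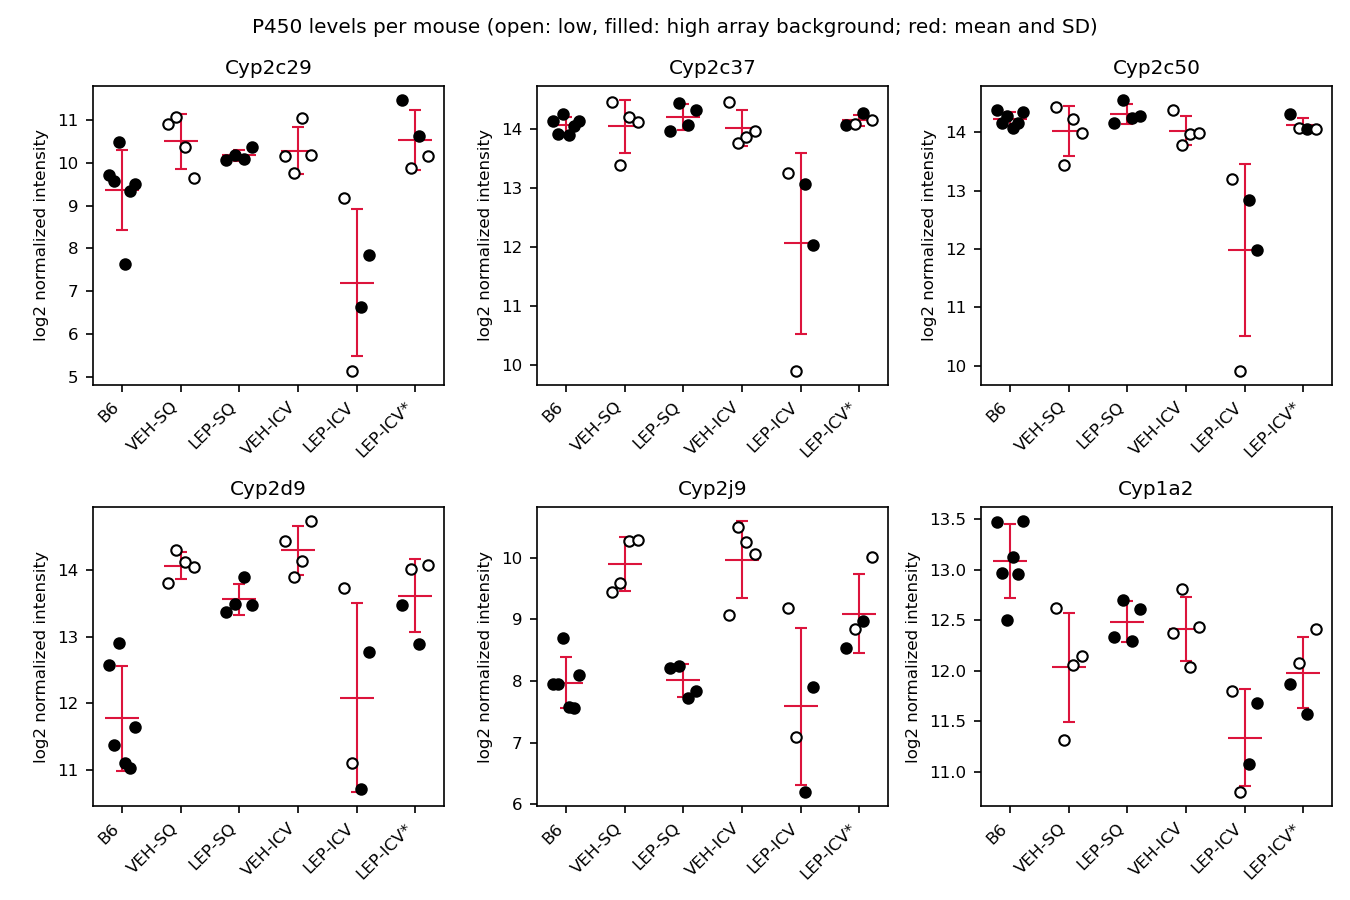
Level of Cyp2c29, Cyp2c37, Cyp2c50, Cyp2d9, Cyp2j9 and Cyp1a2 in each mouse (log2 normalized intensity), by group. Open points are low-background and filled points high-background arrays, and red bars are the mean and SD. LEP-ICV holds the lowest mouse in each panel, as low as 5.13 for Cyp2c29 and 9.91 for Cyp2c50.

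The bases just upstream of these 3 Cyp2c genes are shown because the genes fell together. Each sequence is the 250 bases before the transcription start that the RefSeq promoter table uses (build GRCm38.p6), 5′ to 3′ on the gene's strand. For Cyp2c29 that start lies inside the gene as RefSeq lists it, from 39287044, so that the last 41 bases shown belong to the listed gene, and for the other genes shown none does. Capitals mark CAAAGTNCA, a form of site that HNF4 is known to bind, each on either strand. They also mark the half-site of nuclear receptors AGGTCA and its variant with the letters AGTTCA. Cyp2c29 lay at chr19:39286835-39287084, Cyp2c37 at chr19:39992174-39992423 and Cyp2c50 at chr19:40089429-40089678, all on the plus strand.
Cyp2c29: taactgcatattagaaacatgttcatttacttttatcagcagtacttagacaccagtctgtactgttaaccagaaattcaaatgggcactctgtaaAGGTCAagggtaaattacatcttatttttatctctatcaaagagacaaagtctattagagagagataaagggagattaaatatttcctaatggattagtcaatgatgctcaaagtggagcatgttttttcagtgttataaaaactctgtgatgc
Cyp2c37: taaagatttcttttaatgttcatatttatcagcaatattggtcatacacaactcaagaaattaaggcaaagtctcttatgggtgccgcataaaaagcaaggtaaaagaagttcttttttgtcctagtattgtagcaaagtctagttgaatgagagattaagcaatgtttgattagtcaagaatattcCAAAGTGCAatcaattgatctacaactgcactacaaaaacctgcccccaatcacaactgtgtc
Cyp2c50: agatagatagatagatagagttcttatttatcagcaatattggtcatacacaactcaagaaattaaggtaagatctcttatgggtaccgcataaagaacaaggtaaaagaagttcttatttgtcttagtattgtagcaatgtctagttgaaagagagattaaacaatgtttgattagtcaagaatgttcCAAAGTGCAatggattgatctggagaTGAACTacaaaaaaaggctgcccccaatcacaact
In a global alignment Cyp2c37 and Cyp2c50 were identical in 84.3% of columns, and Cyp2c29 was identical to Cyp2c37 in 58.8% and to Cyp2c50 in 56.2%. Cyp2c37 and Cyp2c50 both held CAAAGTGCA, 63 and 61 bases before the start, and Cyp2c29 held AGGTCA 154 bases before it.

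The Cyp2d genes, relatives of the human enzyme that oxidises many antidepressants, fell in 5 of 7 cases. Cyp2d9, a testosterone hydroxylase typical of male mouse liver, had levels of 13.74, 11.10, 10.72 and 12.78 in LEP-ICV and 14.44, 13.90, 14.14 and 14.74 in VEH-ICV, and the level fell by 2.22 on the log2 scale (SE 0.49, adjusted p = 0.0026). Mouse LEP_ICV_1003 was close to the lowest vehicle mouse, and mice LEP_ICV_1014 and LEP_ICV_1017 were the lowest. Cyp2d12 had levels of 7.21, 5.05, 5.15 and 6.02 in LEP-ICV, detected on 1 array of 4, and 8.11, 7.34, 7.70 and 8.42 in VEH-ICV, and the level fell by 2.04 on the log2 scale (SE 0.46, adjusted p = 0.00319). Cyp2d22 had levels of 13.74, 12.88, 13.28 and 13.85 against 14.03, 14.29, 14.29 and 14.20, and fell by 0.76 on the log2 scale (SE 0.18, adjusted p = 0.0044). The groups did not overlap for these 3 genes, with no share over all genes computed.

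The other members of the subfamily were less even between mice. Cyp2d13 levels were 11.95, 8.18, 7.73 and 9.79 in LEP-ICV and 11.02, 11.82, 11.75 and 11.77 in VEH-ICV. The level fell by 2.18 on the log2 scale (SE 0.68, adjusted p = 0.023), which left mouse LEP_ICV_1003 above every vehicle mouse, and the call was lost with the block, at an adjusted p of 0.245. Cyp2d40 fell by 0.90 on the log2 scale (SE 0.31, adjusted p = 0.039), with 10.33, 8.68, 9.65 and 9.05 in LEP-ICV and 10.62, 10.28, 10.55 and 9.83 in VEH-ICV. Cyp2d10 and Cyp2d26 were not called, at differences of -0.55 and -0.49.

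Outside these clusters Cyp2j9 and Cyp1a2 fell. Cyp2j9, a fatty acid hydroxylase, had levels of 9.19, 7.09, 6.19 and 7.90 in LEP-ICV and 9.07, 10.50, 10.25 and 10.05 in VEH-ICV, with mouse LEP_ICV_1003 just inside the vehicle range, and fell by 2.38 on the log2 scale (SE 0.45, adjusted p = 7.33e-04). Cyp1a2, which oxidises caffeine and aromatic amines around the central vein, had levels of 11.80, 10.79, 11.07 and 11.68 in LEP-ICV and 12.38, 12.80, 12.03 and 12.43 in VEH-ICV, and fell by 1.08 on the log2 scale (SE 0.28, adjusted p = 0.00815) with no overlap. Cyp2e1, the enzyme of ethanol and paracetamol oxidation, was not called, with levels of 14.87, 14.31, 15.08 and 14.96 against 14.79, 13.90, 14.21 and 14.30 and a difference of 0.51.

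The Cyp2b genes are the classical targets of CAR. None of the 4 was called in LEP-ICV against VEH-ICV, but Cyp2b10 was with the block. Its levels were 4.80, 4.77, 6.42 and 6.43 in LEP-ICV, detected on 1 array of 4, and 8.49, 7.47, 6.91 and 7.48 in VEH-ICV. The groups did not overlap, the difference was -1.98 (SE 0.79, adjusted p = 0.0692), and with the block it was -3.33 (SE 0.65, adjusted p = 0.00173). Cyp2b9 and Cyp2b13, which are more abundant in female mouse liver, differed by 0.27 and -1.19. Among the Cyp3a genes, the main oxidisers of steroids and large drugs, Cyp3a13 differed by -0.55 by its brightest probe and was called with the block (-0.73 (SE 0.23, adjusted p = 0.0399)). Its other tested probes differed by 0.26 and 0.50 without the block, neither called. Cyp3a25 differed by -1.38 without a call.

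LEP-ICV* provided a comparison within the same dose, route and mix of array backgrounds. Mice had been placed in LEP-ICV or LEP-ICV* by their weight loss and not by assignment. In LEP-ICV against LEP-ICV*, 11 of the 31 genes were lower and 0 higher, where 8.02% of all genes were called, 3.13% lower and 4.89% higher, and the median log2 fold change was -0.91 beside 0.03 for all genes. With the block 14 were lower, where 11.7% of all genes were called and 4.64% lower. Without it 3 of 4 Cyp2b, 4 of 8 Cyp2c, 1 of 7 Cyp2d and 2 of 3 Cyp3a genes were lower, with Cyp2j9. Cyp2b10 was at 11.64, 6.89, 9.79 and 7.09 in LEP-ICV*, all above the highest LEP-ICV mouse at 6.43. With the gene detected on 1 of the 4 LEP-ICV arrays, the measured levels differed by -3.25 (SE 0.79, adjusted p = 0.0116). Cyp2b13 was at 13.67, 13.04, 13.37 and 12.19 in LEP-ICV* and 11.91, 9.18, 11.80 and 10.59 in LEP-ICV, a difference of -2.20 (SE 0.56, adjusted p = 0.0158). Cyp3a25 differed by -2.32 (SE 0.63, adjusted p = 0.0228). Both central comparisons share the LEP-ICV mice.

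Against VEH-ICV, the LEP-ICV* mice had 0 called genes in the set, and limma called 0% of all genes, with 6 of the 31 at an unadjusted p under 0.05, and the block left 0 called and 0 at that p. The median log2 fold change of the set was 0.21. Cyp2c29 differed by 0.25 (SE 0.61, adjusted p = 0.787) and Cyp2c50 by 0.10 (SE 0.41, adjusted p = 0.879). The 2 LEP-ICV* mice on high-background arrays stood apart in other genes, as Cyp2b10 at 11.64 and 9.79 against 6.89 and 7.09 shows. Without mouse LEP_ICVN_1016 the count was 6, and the share over all genes was not computed.

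Counts in the central comparisons changed when single mice were left out. Mouse LEP_ICV_1014 had the lowest Cyp2c29, Cyp2c37, Cyp2c38, Cyp2c39 and Cyp2c50 levels of all 26 mice except for Cyp2c38, where some B6 mice were lower. Without it 10 genes were called in LEP-ICV against VEH-ICV, and 4 instead of 11 in LEP-ICV against LEP-ICV*. Mouse LEP_ICV_1003 was the closest to the vehicle mice for Cyp2c29, Cyp2c38, Cyp2d9, Cyp2d13 and Cyp2j9, and without it 16 genes were called in each of these 2 comparisons. The share over all genes was not computed with a mouse left out, so whether the set moved apart from other genes is not known. A model of the 2 compared groups alone took its spread from those mice only. It called 5 genes and 0 genes (12 at an unadjusted p under 0.05), all of the 5 lower, where 6.31% and 0.201% of all genes were called. The model of 6 groups shares its spread across groups that were not equally even. For Cyp2c37 the SD was 1.54 in LEP-ICV, 0.31 in VEH-ICV and 0.09 in LEP-ICV*. For Cyp2c39 it was 0.27, 0.43 and 0.47. On low-background arrays alone, with 2 LEP-ICV mice, Cyp2b10 (-2.80, adjusted p = 0.0237) and Cyp2c39 (-1.37, adjusted p = 0.0279) were called, where 5.23% of all genes were. On high-background arrays alone, LEP-ICV against LEP-ICV* gave 7 lower genes, where 7.31% of all genes were called.

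Macrophage markers moved with the central result. Of 11 listed Kupffer cell and macrophage markers 8 were tested, and all 8 rose in LEP-ICV against VEH-ICV, with and without the block. The list includes C1qb, Gpnmb and Mmp12, which the study had reported from these arrays as rising with weight loss. Part of that count was therefore fixed beforehand. The summed level of the 8 was between 13.12 and 13.95 in LEP-ICV, 11.27 and 11.90 in VEH-ICV, and 11.25 and 12.03 in LEP-ICV*. The 7 tested hepatocyte markers had a summed level of 16.96 to 17.69 in LEP-ICV, 17.64 to 17.67 in VEH-ICV and 17.23 to 17.77 in LEP-ICV*. Their median log2 fold change in LEP-ICV against VEH-ICV was -0.96, 1 fell and 0 rose, and 2 fell with the block. Over all genes 13.5% rose and 11.5% fell, and with the block 7.24% and 5.32%. In LEP-ICV against LEP-ICV* the median of the hepatocyte markers was -0.23, and 0 were called, where 8.02% of all genes were. With the block 2 fell there, where 4.64% of all genes fell. The part of macrophages and hepatocytes in the P450 changes was not tested.

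LEP-SQ livers differed from VEH-SQ livers in both directions. In LEP-SQ against VEH-SQ, 4 genes were higher and 4 lower, or 25.8% of the 31, where 40.1% of all genes were called, 19.1% higher and 21% lower. The mean of a gene's probes gave 13 of the 31, where 39.9% of all genes were called, and whether the set's share differs from that of all genes was not tested. The median size of the log2 change was 0.55 in the set and 0.62 over all genes. The 4 higher genes were Cyp3a11, Cyp2c70, Cyp2f2 and Cyp2e1, and the 4 lower were Cyp2j9, Cyp2d12, Cyp2c39 and Cyp1b1. With median scaling in place of quantile normalization, which moved the median of all genes to -0.27, the split was 2 higher and 5 lower, where 12.7% of all genes were higher and 24.8% lower. With the block, 0 genes of the set were called (4 at an unadjusted p under 0.05) and 0.277% of all genes.

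Cyp3a11, the principal drug-oxidising Cyp3a enzyme of mouse liver and a target of PXR, showed the widest difference. Its levels were 14.28, 12.68, 13.98 and 14.34 in LEP-SQ and 9.44, 8.81, 9.89 and 8.74 in VEH-SQ, without overlap, a rise of 4.60 on the log2 scale (SE 1.15, adjusted p = 0.00567). With the block the difference was 2.07 (SE 1.48, adjusted p = 0.777). Its levels followed the array background inside LEP-ICV*, where the high-background mice had 13.27 and 13.36 and the low-background mice 9.64 and 8.05. In LEP-ICV the high-background mice had 14.23 and 7.13 and the low-background mice 8.69 and 11.47, so that the class did not order them, and LEP-ICV differed from VEH-ICV by 2.68 (SE 1.15, adjusted p = 0.0885). Against the high-background LEP-ICV* pair in place of VEH-SQ, a comparison chosen after the data were seen that called 0 of the 31 genes (5 at an unadjusted p under 0.05) and 0.226% of all, the difference was 0.51, adjusted p = 0.999.

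The upstream bases of Cyp3a11 are shown because it had the largest change of the set. They lay at chr5:145879855-145880104 on the minus strand (build GRCm38.p6) and are printed 5′ to 3′ on the strand of the gene, with capitals as above.
Cyp3a11: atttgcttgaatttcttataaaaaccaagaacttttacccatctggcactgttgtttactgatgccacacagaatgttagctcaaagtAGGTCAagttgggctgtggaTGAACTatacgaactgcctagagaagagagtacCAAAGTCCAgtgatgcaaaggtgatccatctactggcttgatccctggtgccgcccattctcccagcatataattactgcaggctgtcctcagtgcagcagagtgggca
All 3 kinds of site occurred, with AGGTCA starting 162 bases before the start. The variant half-site on the opposite strand lay 142 and CAAAGTCCA 109 bases before it. RefSeq promoters were matched for 27 of the 31 genes. CAAAGTNCA was found in 6 of the 27 (22.2%), Cyp2c37, Cyp2c50, Cyp2c67, Cyp2c70, Cyp2d26 and Cyp3a11, and in 1.19% of all 32851 promoters of the same length. AGGTCA occurred in 9 of the 27 (33.3%) and 14.0% of all, and AGTTCA in 2 of the 27 (7.41%) and 11.8% of all. TTCNNNGAA, the motif of the STAT factors that growth hormone and leptin activate, occurred in 0 of the 27 and in 7.02% of all. Clustered genes share ancestry, so their promoters are not independent, and a match is a string of letters and not a measured site.

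The other genes called under the skin were moderate in size. Cyp2c70 levels were 13.53, 14.08, 13.88 and 14.09 in LEP-SQ and 12.75, 12.45, 12.39 and 12.02 in VEH-SQ, a rise of 1.49 on the log2 scale (SE 0.36, adjusted p = 0.00499). Cyp2f2, which oxidises naphthalene and marks hepatocytes around the portal tract, was at 14.76, 14.77, 14.68 and 14.63 against 13.44, 13.66, 13.60 and 13.35, and rose by 1.20 on the log2 scale (SE 0.33, adjusted p = 0.008). Cyp2e1 was at 15.41, 15.55, 15.37 and 15.53 against 14.65, 14.74, 14.95 and 14.80, a rise of 0.68 on the log2 scale (SE 0.21, adjusted p = 0.0163), but a difference of -0.04 with median scaling. The groups did not overlap for these 3 genes, with no share over all genes computed.

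Of the lower genes, Cyp2j9 was at 8.21, 8.25, 7.73 and 7.84 in LEP-SQ and 9.44, 9.60, 10.27 and 10.28 in VEH-SQ, and fell by 1.89 on the log2 scale (SE 0.45, adjusted p = 0.00437). Cyp2d12 was at 6.66, 6.44, 5.77 and 5.61 against 7.20, 8.63, 7.96 and 7.35, and fell by 1.66 on the log2 scale (SE 0.46, adjusted p = 0.00863). Cyp2c39 was at 7.15, 7.82, 7.19 and 6.54 against 8.30, 8.38, 8.54 and 8.04, and fell by 1.14 on the log2 scale (SE 0.26, adjusted p = 0.00405). These 3 genes did not overlap between the groups, with no share over all genes computed. They also fell in LEP-ICV, whose vehicle and leptin mice were other animals. Cyp1b1, which oxidises estrogens and aromatic hydrocarbons, was at 5.85, 5.29, 5.72 and 6.19 against 6.01, 7.55, 6.43 and 6.89, with overlap, and fell by 0.96 on the log2 scale (SE 0.38, adjusted p = 0.0441), but was detected on 1 array of LEP-SQ and 2 of VEH-SQ. With the block, the differences of the 7 genes other than Cyp3a11 were 0.63 for Cyp2c70, 0.36 for Cyp2f2, 0.15 for Cyp2e1, -1.01 for Cyp2j9, -0.68 for Cyp2d12, -1.48 for Cyp2c39 and -1.29 for Cyp1b1, none of them called. Cyp2c29, which had the largest fall under central leptin, was at 10.06, 10.19, 10.08 and 10.36 in LEP-SQ and 10.92, 11.08, 10.36 and 9.65 in VEH-SQ, and the difference was -0.33 (SE 0.61, adjusted p = 0.674).

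**Figure D3:**
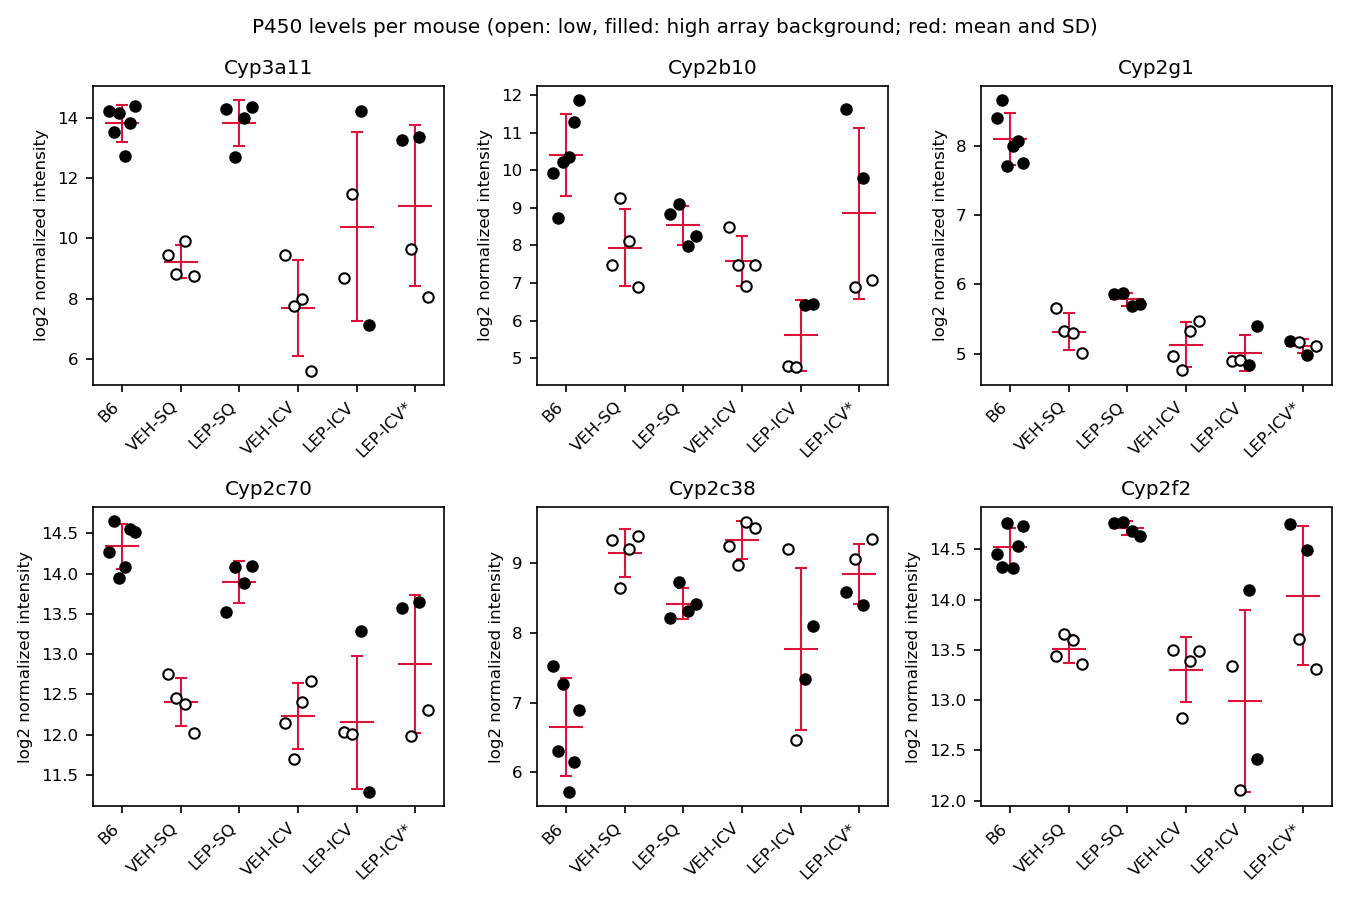
Level of Cyp3a11, Cyp2b10, Cyp2g1, Cyp2c70, Cyp2c38 and Cyp2f2 in each mouse (log2 normalized intensity), by group. Open points are low-background and filled points high-background arrays, and red bars are the mean and SD. For Cyp3a11, Cyp2c70 and Cyp2f2 the filled LEP-ICV* points lie above the open ones, whereas Cyp2g1 separates B6, at 7.71 or above, from all ob/ob mice in both classes.

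The routes were set against each other by testing the difference of the leptin effects. They also differed in daily dose, and LEP-ICV held only mice that lost weight, so that route, dose and this selection cannot be told apart. The ICV effect minus the SQ effect was called, as lower, for 2 genes of the set, where 1.71% of all genes were called and 0.792% lower, and 12 genes had an unadjusted p under 0.05. The median difference was -0.80 in the set and 0.06 over all genes. Cyp2c50 differed by -2.33 (SE 0.58, adjusted p = 0.0419) and Cyp1a2 by -1.52 (SE 0.39, adjusted p = 0.0488), each by its brighter probe. Cyp2c29 differed by -2.76 (SE 0.86, adjusted p = 0.108). With the block 0 genes were called (11 at an unadjusted p under 0.05), where 1.22% of all were, and the adjusted p was 0.0852 for Cyp2c50 and 0.0509 for Cyp1a2. Leaving out single mice moved the count between 0 and 6, and 12 of the 16 omissions left 0 genes, with no share over all genes computed.

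Vehicle ob/ob livers differed from B6 livers in 19 genes of the set, 7 higher and 12 lower, where 67.3% of all genes were called, 35.4% higher and 31.9% lower. With median scaling, which moved the median of all genes to 0.37, the split was 12 higher and 7 lower, where 44.4% of all genes were higher and 23.4% lower. With the block 4 genes were called, where 7.85% of all genes were, 5.1% higher and 2.74% lower: Cyp2g1 lower, and Cyp2c38, Cyp2c39 and Cyp1b1 higher. Because every B6 array was of the high and every vehicle array of the low class, these 4 are described first. Of them Cyp2g1 passed the filter through the B6 arrays alone. All counts of lower genes against B6 here and below include it, although its direction was fixed. Cyp2s1 passed the filter in the same way and was called in no comparison with B6.

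Cyp2g1, known as a steroid-oxidising enzyme of the nasal mucosa, was between 7.71 and 8.67, with a median of 8.03, in the 6 B6 mice. It was between 4.77 and 5.66 in the 8 vehicle mice and was not detected in any ob/ob mouse of any group. The gene thus passed the filter through the B6 arrays alone, so a difference from B6 was bound to be in this direction, and its p-values are given as a description. The level was at least 2.33-fold lower in vehicle ob/ob mice by the detection floor of those arrays (log2 difference -2.87 (SE 0.16, adjusted p = 1.26e-11)). LEP-SQ mice, on arrays of the same class as B6, had 5.85, 5.88, 5.69 and 5.72, at least 4.45-fold lower than B6 (-2.31 (SE 0.19, adjusted p = 6.58e-08)). In that comparison the arrays' background did not differ by class.

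Cyp2c38 was between 5.71 and 7.52, with a median of 6.60, in B6 and between 8.65 and 9.59 in the vehicle mice, and was higher by 2.60 (SE 0.32, adjusted p = 6.09e-07). It remained higher in LEP-SQ than in B6, at 8.22, 8.73, 8.32 and 8.42, by 1.78 (SE 0.38, adjusted p = 0.0061). Cyp2c39 was between 7.06 and 7.67, with a median of 7.36, in B6 and between 7.52 and 8.54 in the vehicle mice, with overlap, and higher by 0.76 (SE 0.20, adjusted p = 0.00206). Cyp1b1 was higher by 1.46 (SE 0.29, adjusted p = 1.24e-04), but was detected on 3 of 8 vehicle arrays and none of 6 B6 arrays, a difference of at least 1.55-fold by the detection floor.

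The calls that rested on arrays of unequal background were more numerous. Cyp3a11 was between 12.74 and 14.38, with a median of 13.99, in B6 and between 5.60 and 9.89 in the vehicle mice, a difference of -5.35 (SE 0.88, adjusted p = 1.69e-05). With the block it was -2.81 (SE 1.32, adjusted p = 0.192) and not called. Cyp2b10 was between 8.74 and 11.88, with a median of 10.28, in B6 and between 6.89 and 9.27 in the vehicle mice, with overlap. Its difference of -2.63 (SE 0.61, adjusted p = 5.70e-04) became 0.05 (SE 0.73, adjusted p = 0.976) with the block. Cyp2d9 was between 11.03 and 12.91, with a median of 11.51, in B6 and between 13.82 and 14.74 in the vehicle mice, higher by 2.41 (SE 0.37, adjusted p = 8.26e-06), with an adjusted p of 0.0861 with the block.

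The remaining 12 calls were smaller. Cyp2d13, Cyp2j9 and Cyp2d12 were higher, at 2.16, 1.96 and 1.77. Cyp2c70 (-2.02), Cyp2c55, which hydroxylates arachidonic acid and was undetected in all 8 vehicle mice (-1.96, at least 1.47-fold), Cyp2f2 (-1.11), Cyp2b9 (-1.10), Cyp2b13 (-1.10), Cyp1a2 (-0.86), Cyp2d40 (-0.75), Cyp2a12 (-0.70) and Cyp2e1 (-0.63, but 0.14 with median scaling) were lower. Their adjusted p-values lay between 2.04e-06 for Cyp2c70 and 0.0273 for Cyp2b13, and none was called with the block. Against the high-background LEP-ICV* pair in place of vehicle mice, a comparison chosen after the data were seen, 4 genes were called where 5.34% of all genes were. They were Cyp2g1 (-3.02, adjusted p = 2.68e-05), Cyp1a2 (-1.36, adjusted p = 0.0103), Cyp2c38 (1.85, adjusted p = 0.0188) and Cyp2c39 (1.19, adjusted p = 0.0409), while Cyp3a11 differed by -0.49, adjusted p = 0.878.

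**Figure D4:**
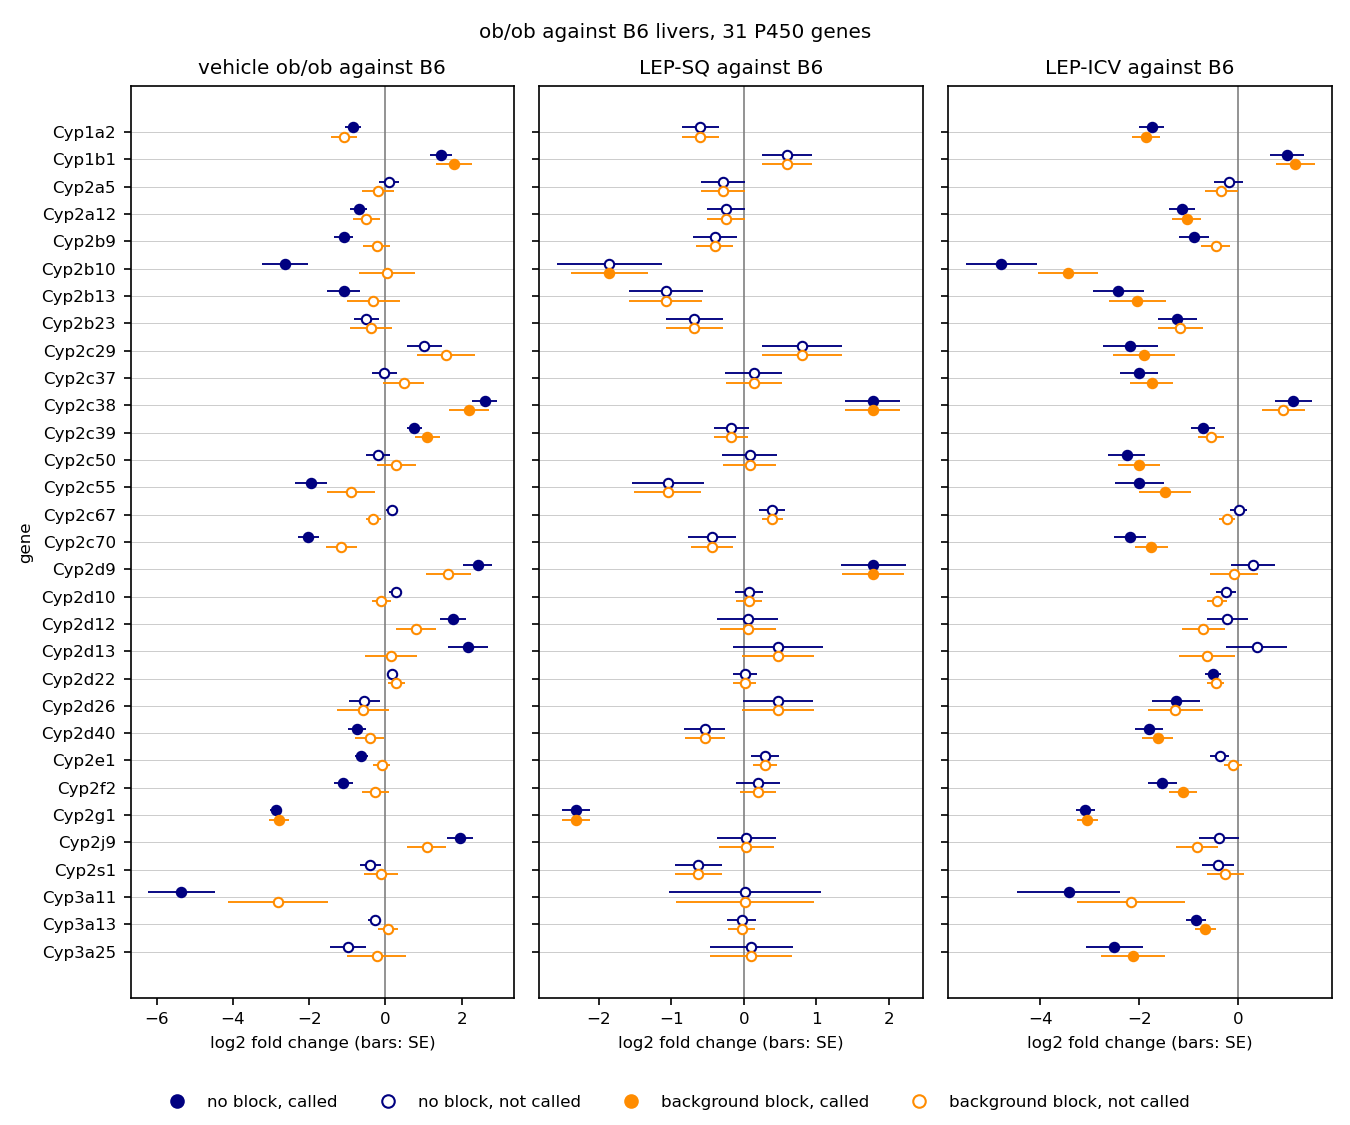
Log2 fold change of the 31 genes, with the SE as a bar, of vehicle ob/ob (left), LEP-SQ (middle) and LEP-ICV (right) against B6, without (blue) and with (orange) the array background class as a block. Filled points are called at an adjusted p under 0.05. Blue and orange points lie at the same values for LEP-SQ, whose arrays are all of the class of B6. Cyp2g1, which passed the filter through the B6 arrays alone, is filled and left of 0 in all 3 panels.

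LEP-SQ against B6 compared arrays of 1 class. Here 3 of the 31 genes were called, Cyp2c38 and Cyp2d9 higher and Cyp2g1 lower, where 7.28% of all genes were called, 5.03% higher and 2.25% lower, and 8 genes had an unadjusted p under 0.05. Cyp2d9 was at 13.37, 13.49, 13.90 and 13.49 in LEP-SQ, all above the highest B6 mouse at 12.91, a difference of 1.79 (SE 0.45, adjusted p = 0.0148), which lost its call without mouse LEP_SQ_1039 (adjusted p = 0.0576). Cyp3a11 was at 13.82 ± 0.78 (SD, n = 4) in LEP-SQ and 13.81 ± 0.61 (SD, n = 6) in B6, a difference of 0.01 (SE 1.05, adjusted p = 0.996), whose SE is wide. Cyp2b10 differed by -1.86 (SE 0.72, adjusted p = 0.125), and was called with the block, where the set had 4 calls and 12.7% of all genes were called, and within the high class alone (-1.86, adjusted p = 0.031), where 12.9% of all genes were.

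LEP-ICV livers stood further from B6. Of the 31 genes 20 were lower and 2 higher than in B6, where 18.4% of all genes were lower, 24.4% higher and 42.7% called. With the block 14 were lower and 1 higher, where 9.35% of all genes were lower, 15.5% higher and 24.9% called. The median log2 fold change was -1.13 in the set and 0.10 over all genes. All 4 Cyp2b, 6 of 8 Cyp2c and all 3 Cyp3a genes were lower. Cyp2b10, detected on 1 of the 4 LEP-ICV arrays, had a measured difference of -4.79 (SE 0.72, adjusted p = 2.71e-05). Cyp2c50 differed by -2.25 (SE 0.38, adjusted p = 8.40e-05) by its bright probe. That probe hardly differed between vehicle ob/ob and B6 mice, whereas the dim probe of the gene was called lower there. On high-background arrays alone, with 2 LEP-ICV mice, 16 genes were called, 15 of them lower, where 26.3% of all genes were called. Both these comparisons share the B6 mice with that of the vehicle groups.

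Probes of 1 gene often disagreed. Of the 31 genes 7 had more than 1 tested probe, and each was represented above by the probe with the highest mean. For Cyp2d26 the representing probe (mean level 12.90) changed by 0.83 in LEP-SQ against VEH-SQ and by -0.56 in vehicle ob/ob against B6, and was called in neither, whereas the other probes (8.61 and 8.60) changed by 3.65 and 3.61, and by -4.41 and -4.49, and were called in both. The dimmer Cyp2c67 probe (7.13) changed by 4.20 and -3.85, where the brighter (13.75) changed by 0.27 and 0.16. In Cyp1a2 the dimmer probe (10.77) changed by 1.98 in LEP-SQ, -0.02 in LEP-ICV and -3.42 in vehicle ob/ob against B6, where the brighter (12.29) changed by 0.45, -1.08 and -0.86. In Cyp3a13 the brightest probe (12.79) changed by 0.25, -0.55 and -0.28 in the same order, without a call. Its other probes changed by 1.61, 0.26 and -2.56 (10.96) and by 1.07, 0.50 and -2.20 (6.35). Of these, 1.61, -2.56 and -2.20 were called. Cyp2a5, a coumarin hydroxylase, was called by its brightest probe (14.03) in none of these comparisons, at 0.09 in vehicle ob/ob against B6, while its other probes (8.38, 9.72 and 10.02) changed by -4.70, -4.67 and 0.85 there and were all called. For Cyp2c37 all 3 probes fell in LEP-ICV, with changes of -1.95, -1.99 and -1.63, but the dim Cyp2c50 probe (5.86) did not move with the bright one and changed by -0.08. The dim Cyp2c50 probe changed by 1.92 in LEP-SQ against VEH-SQ and by -1.28 in vehicle ob/ob against B6, both called. The bright one changed by 0.29 and -0.21 there, neither called. Averaging the probes of a gene gave 9 higher genes of the 13 in LEP-SQ against VEH-SQ and left 11 in LEP-ICV against VEH-ICV, where 26% of all genes were called. A model of LEP-SQ and VEH-SQ alone called 15 genes of the set, where 52.1% of all genes were called. Dim probes lie closest to the array background, and its part in their changes was not tested beyond the block.

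**Figure D5:**
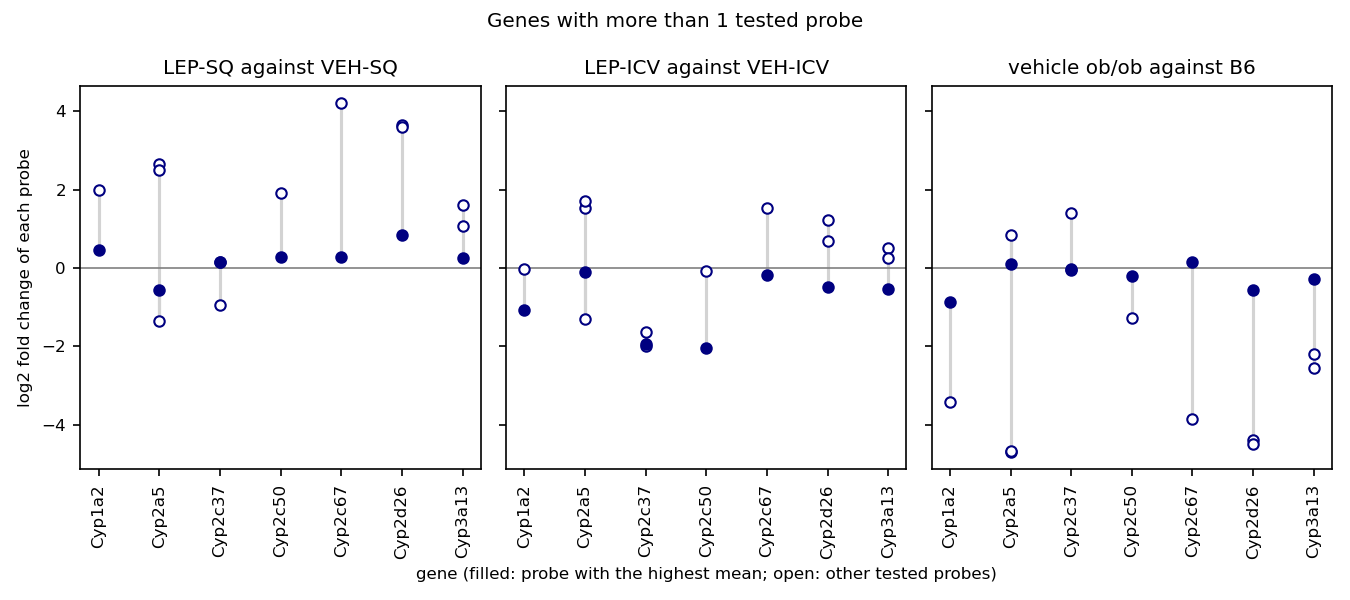
Log2 fold change of each tested probe of the 7 genes with more than 1, in LEP-SQ against VEH-SQ, LEP-ICV against VEH-ICV and vehicle ob/ob against B6. Filled points are the probes with the highest mean, which represent the gene, and lines join the probes of a gene, where close points overlap. The other probes of Cyp2c67 and Cyp2d26 lie above 3.5 in the left panel and below -3.8 in the right, far from the filled points.

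Of 14 listed regulators of these genes 10 were tested. In LEP-ICV against VEH-ICV Nr1i3, which encodes CAR, alone was called and fell by 1.28 (adjusted p = 0.0155), 1 of 10 where 11.5% of all genes fell, and with the block the difference was -1.12 (adjusted p = 0.0812). Nr1i2, which encodes PXR, differed by -0.47 and Hnf4a by -1.12, neither called. In LEP-SQ against VEH-SQ Hnf4a fell by 1.73 and Cebpa, a hepatocyte transcription factor, rose by 1.31. This was 1 lower and 1 higher of 10, where 21% of all genes were lower and 19.1% higher. Neither was called with the block, where 0.277% of all genes were. In vehicle ob/ob against B6, 2 were higher and 3 lower, where 67.3% of all genes were called, and none with the block. Of the 6 tested electron donors and haem genes 1 rose and 1 fell in LEP-ICV against VEH-ICV, where 13.5% of all genes rose and 11.5% fell. With the block 0 rose and 2 fell, where 7.24% of all genes rose and 5.32% fell. Cyb5r3, a reductase of cytochrome b5, fell by 0.91 (adjusted p = 9.32e-04, and 0.00318 with the block). The study had reported Cyb5r3 from these arrays as falling with weight loss. Cyb5b, a cytochrome b5 of the outer mitochondrial membrane, differed by -0.40 (adjusted p = 0.227) and was lower with the block (-0.84, adjusted p = 0.00359). Hmox1, which degrades haem, rose by 2.03 (adjusted p = 0.00721, and 0.0605 with the block), and Alas1, the first enzyme of haem synthesis, was not called at 0.61.

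Further lists bear on where and in which sex such genes are used. In vehicle ob/ob against B6 their counts are to be read against 35.4% of all genes higher and 31.9% lower, and with the block 5.1% and 2.74%. Of 6 tested genes more abundant in female mouse liver, 3 of them Cyp2b genes of the set, 2 were higher and 4 lower there, and with the block 2 and 0. Of 9 tested genes more abundant in male mouse liver, of which Cyp2d9 belongs to the set, 6 were higher and 2 lower, and with the block 2 and 2. In LEP-ICV against VEH-ICV the shares over all genes were 13.5% higher and 11.5% lower, and with the block 7.24% and 5.32%. Of the female list 0 rose and 2 fell, and with the block 0 and 3. Of the male list 1 rose and 3 fell, and with the block 0 and 3. Among zonation markers, 1 of 9 tested genes of the central vein rose and 3 fell, including Cyp1a2, and with the block 0 and 3. Of the 6 tested genes of the portal tract 0 rose and 4 fell, and with the block 1 and 3. The portal list includes Sds, Gls2, Ass1 and Arg1, the female list Cyp17a1 and Hao3, and the male list Selenbp2. The study had reported these genes from the same arrays as falling with weight loss. Part of the counts of lower genes under central leptin was therefore fixed beforehand.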

How the data were processed

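The authors hybridised liver RNA of 26 mice to Illumina MouseRef-8 arrays, 1 array per mouse, and deposited probe intensities that had not been normalized, each with a detection score given as a fraction, together with log2 values that they had made with the lumi package (variance stabilisation and robust spline normalization). The detection p was taken as 1 minus the deposited score, because bright probes scored near 1. Probe symbols came from the array annotation table. In R 4.3.3 with limma 3.58.1, neqc (offset 16) removed the background from the intensities and quantile normalized them, and probes with a detection p under 0.01 on at least 4 arrays were kept (11001 of 25697). A single limma model of the 6 groups gave all comparisons, with Benjamini-Hochberg adjustment over all tested probes and calls at an adjusted p under 0.05. Of several tested probes, that of the highest mean level stood for its gene. The design document listed every detected gene of the set as open to naming, with full statistics for those called in LEP-SQ against VEH-SQ, LEP-ICV against VEH-ICV or vehicle ob/ob against B6 and for Cyp3a11, Cyp2c29 and Por. The members and gene lists were chosen with earlier results of these data known. Groups came from the sample labels, and p-values measure the spread between mice. Precision is limited by the small number of arrays. The method was tested on data simulated with an equal spread in all groups and no background class, unlike the real arrays. For LEP-ICV against VEH-ICV it recovered 3.23% of changes of 0.5, 33.3% of changes of 1 and 77.8% of changes of 2 on the log2 scale. Of 84 calls 4 were false. Alternatives were no background correction, median scaling, the deposited log2 values, no or a stricter probe filter (13 arrays), the array background class as a block or alone, only the compared groups, the mean of a gene's probes, and leaving out each mouse. Lower limits of a fold used, on each array, the higher of the probe's own level and the lowest level among detected probes. RefSeq supplied the promoters (build GRCm38.p6). An undetected gene has no level here.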

Additional observations from a re-analysis of the deposited data

Results flagged for a closer look

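The level of 1 mouse stood far from the others of its group in 7 of 173 group levels of the 31 genes, where chance flags about 1 in 20 groups. In VEH-SQ, mouse VEH_SQ_1034 had the lowest Cyp3a25 level, at 9.81 where the nearest mouse had 11.58, and the lowest Cyp2d26 level, at 11.97 where the nearest had 13.02. In VEH-ICV, mouse VEH_ICV_1012 was low for Cyp2b13, at 11.38 against 12.24 in the nearest mouse, mouse VEH_ICV_1002 for Cyp2d13, at 11.02 against 11.75, and mouse VEH_ICV_1010 for Cyp2f2, at 12.82 against 13.39. In LEP-ICV*, mouse LEP_ICVN_1001 was high for Cyp2c39, at 9.01 against 8.13, and for Cyp2c50, at 14.31 against 14.08. LEP-ICV* mouse LEP_ICVN_1001 was on a high-background array and the vehicle mice on low-background arrays.

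The leptin effect differed between the routes by the test of the difference for Cyp2c50, where the ICV effect minus the SQ effect was -2.33 on the log2 scale, and for Cyp1a2, where it was -1.52. Neither difference was called with the array background class as a block. Route cannot be told apart here from dose or from the selection of LEP-ICV mice by weight loss.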

How the results depend on the processing

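Each group held 4 or 6 mice. Counts below are genes of the set called by limma. With the background class as a block, LEP-SQ against VEH-SQ had 0 (4 at an unadjusted p under 0.05), vehicle ob/ob against B6 had 4 and the difference between routes 0 (11 unadjusted), against 8, 19 and 2. With only the compared groups in the fit the counts were 15 for LEP-SQ against VEH-SQ, 5 for LEP-ICV against VEH-ICV and 0 for LEP-ICV against LEP-ICV* (12 unadjusted). In that fit LEP-SQ against B6 had 6, where 23.2% of all genes were called. The difference between routes had 0 (12 unadjusted), where 0.956% of all genes were called. That difference also had 0 with median scaling (14 unadjusted) and with no probe filter (13 unadjusted), where 1.27% and 0.597% of all genes were called. The mean of a gene's probes gave 13 in LEP-SQ against VEH-SQ. On low-background arrays LEP-ICV against VEH-ICV had 2 and LEP-ICV against LEP-ICV* 0 (11 unadjusted), where 0.251% of all genes were called in the latter. On high-background arrays the latter had 7. With the high-background LEP-ICV* pair as reference, chosen after seeing the data, LEP-SQ had 0 (5 unadjusted) in place of 8, and the comparison with B6 had 4 in place of 19. In other comparisons and settings the counts stayed within 1.5 times, apart from those that leave out a mouse. The cause was not tested.

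Leaving out each mouse gave 7 to 9 for LEP-SQ against VEH-SQ, 10 to 16 for LEP-ICV against VEH-ICV, 18 to 20 for vehicle ob/ob against B6, 4 (without LEP-ICV mouse LEP_ICV_1014) to 16 for LEP-ICV against LEP-ICV*, 0 to 6 for LEP-ICV* against VEH-ICV, 2 to 3 for LEP-SQ against B6, 17 to 22 for LEP-ICV against B6 and 0 to 6 for the difference between routes. Shares over all genes were not computed for these fits. Of 796 values of called genes with a mouse left out, 709 kept direction and call and 87 lost the call, and none reversed. With median scaling Cyp2e1 reversed to -0.0435 in LEP-SQ against VEH-SQ and to 0.14 in vehicle ob/ob against B6, and with the block Cyp2b10 reversed to 0.0526 in the latter. With the LEP-ICV* pair as reference, Cyp2d12 reversed to 0.0603 in LEP-SQ against VEH-SQ, and in the comparison with B6 Cyp2b10 reversed to 0.32, Cyp2b13 to 0.23, Cyp2c55 to 0.0532, Cyp2d12 to -0.00521, Cyp2d13 to -0.32, Cyp2e1 to 0.0241 and Cyp2f2 to 0.10. No paired analysis was possible because every mouse carries a number of its own and no number is shared between groups. Signal near the background limits genes such as Cyp1b1, Cyp2g1 and Cyp2d12, and the quantity of a transcript below detection is not measured.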
